A study of Mus musculus with 6 samples.

Results

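The MOS-MAPK-RSK pathway is represented here by 7 genes chosen by name: Mos, the MEK genes Map2k1 and Map2k2, the ERK1 gene Mapk3, and the RSK genes Rps6ka1, Rps6ka2 and Rps6ka3. They are 7 of the 55487 genes in the deposited count table, and the rule that picks them uses gene names and no measured value. MOS is a germ-cell kinase that phosphorylates MEK, MEK phosphorylates ERK, and ERK phosphorylates RSK and other substrates. In vertebrate oocytes this cascade is switched on by translation of stored Mos mRNA during maturation and is part of the cytostatic activity that holds the egg at metaphase II until fertilization. Mouse oocytes that lack Mos fail to hold this arrest, whereas mouse oocytes that lack the RSK kinases still arrest. The cascade acts through protein synthesis and phosphorylation, and the libraries describe only its mRNA.

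RNA was sequenced from mouse oocytes, 3 libraries labelled control and 3 labelled metformin, a biguanide drug used in type 2 diabetes. The series title gives aged mice as the source, and the labels give no age, strain, oocyte number per library or genotype. In both groups mice had received 10 IU of pregnant mare serum gonadotropin, germinal-vesicle oocytes were taken after 46 to 48 h and freed of cumulus cells, and culture in M16 medium ran for 16 h to metaphase II, without metformin for control. Metformin was used at 10, 20 or 50 μM in the study, and the labels do not tell which of these doses the sequenced oocytes received. Whether the 3 libraries of a group stem from different animals or from 1 pool of oocytes is not stated, and p-values here measure no more than the spread among these libraries, which may be technical.

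Libraries held between 8622281 and 10588292 counted reads, so a floor of 3 counts stood at 0.283 to 0.348 CPM (read counts scaled to a common library size). All 10 oocyte markers listed (Gdf9, Zp3, Nlrp5 and others) were detected. The 14 cumulus and granulosa markers summed to 67.8 to 72.2 CPM without and 65.5 to 77.6 CPM with metformin. Most of these reads came from Cyp19a1 (318 to 489 counts per library), Nr5a2 (159 to 188) and Kitl (78 to 109), whereas Amh, Amhr2, Foxl2 and Ptx3 were at 0 in every library. The 9 stromal, thecal and endothelial markers summed to 34.9 to 40.8 CPM without and 31.0 to 42.9 CPM with metformin. Pecam1 had the most counts of that list, 230 to 365, and Col1a1 had 25 in control replicate 1 against 0 or 1 elsewhere. The 8 blood markers summed to 32.0 CPM in control replicate 1 and to between 1.36 and 2.58 CPM in the other 5 libraries, 1 of the markers being at 0 throughout. Fewer cells of a type and less RNA per cell cannot be told apart in such libraries.

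Reverse transcription in the SMART-Seq HT kit is primed on poly(A), so the annotated 3′ ends of the cascade's mRNAs are shown first. Each window is 30 bases of the longest coding transcript in GENCODE M21 (GRCm38), written as DNA in the sense of the mRNA, with the poly(A) signal in capitals. The Mos window (chr4:3870661-3870690, minus strand) lies in a 3′ UTR of 126 bases, the Map2k1 window (chr9:64185773-64185802, minus strand) in one of 915 bases, the Rps6ka1 window (chr4:133847295-133847324, minus strand) in one of 762 bases and the Rps6ka3 window (chrX:159368212-159368241, plus strand) in one of 4759 bases.
Mos: atatttttaggaAATAAAgttaccacgaac
Map2k1: ctatcaagttaaAATAAAagggacaagaga
Rps6ka1: caaggcctttctAATAAActtacaatccag
Rps6ka3: ggaaatttatatAATAAAgtttcaagtaaa

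The last 100 bases of the transcript were searched on the mRNA strand for AATAAA or ATTAAA, which were present in 78.6% of 19745 coding genes with a 3′ UTR of at least that length. AATAAA was present in 5 of the 7 cascade genes (Mos, Map2k1 and the RSK genes), and neither motif was found in these windows of Map2k2 and Mapk3. The letters TTTTAT and TTTTAAT are forms of the cytoplasmic polyadenylation motif known to be read by CPEB1 in stored oocyte mRNAs. They stood in the last 100 bases of 17.8% of the 19745 genes and, of the 7, in Rps6ka2. Over whole annotated 3′ UTRs they occurred 0 times in Mos, 2 times in Map2k1, 0 times in Map2k2 and Mapk3, 0 times in Rps6ka1, 2 times in Rps6ka2 and 7 times in Rps6ka3. These are letter matches in annotated transcripts and not sites of binding. Other U-rich forms of the motif were not searched, so a count of 0, as for Mos, does not mean that the mRNA lacks such an element.

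Mos was the most abundant mRNA of the cascade (ENSMUSG00000078365, GRCm38 chromosome 4, 3870657 to 3872105, minus strand, annotated as an intronless coding gene). Its counts were 14619, 12325 and 15257 in control and 12923, 14865 and 15643 in metformin replicates 1 to 3. The lowest and the highest count came from control replicate 2 and metformin replicate 3, and the groups overlapped. Mos took between 0.130% and 0.157% of all counted reads, and only 92 of the 12793 genes tested had a higher mean CPM. After scaling, Mos stood at 1502 ± 96.2 CPM without and 1430 ± 188 CPM with metformin (SD, n = 3). The log2 fold change was -0.07 (SE 0.143, 95% interval -0.38 to 0.24, adjusted p = 1.00, edgeR quasi-likelihood test), an interval of 0.767-fold to 1.18-fold.

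Of the MEK genes, nearly all mRNA was Map2k1 (MEK1; ENSMUSG00000004936, chromosome 9, 64185770 to 64253631, minus strand). Control libraries held 4488, 3757 and 5006 Map2k1 counts and metformin libraries 4137, 4802 and 4734. The groups overlapped, at 471 ± 46.2 and 450 ± 49.3 CPM (SD, n = 3), and the log2 fold change was -0.07 (SE 0.140, 95% interval -0.37 to 0.24, adjusted p = 1.00, edgeR). Map2k2 (MEK2; ENSMUSG00000035027, chromosome 10, 81105915 to 81133975, plus strand) had 75, 59 and 50 counts in control and 77, 56 and 41 in metformin libraries. Replicate 3 was the lowest library in each group, and the groups overlapped. Map2k2 stood at 6.57 ± 1.36 and 5.67 ± 1.57 CPM (SD, n = 3), with a log2 fold change of -0.21 (SE 0.272, 95% interval -0.81 to 0.39, adjusted p = 1.00, edgeR). It was -0.44 without metformin replicate 1 and -0.04 without metformin replicate 3.

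Mapk3 (ERK1; ENSMUSG00000063065, chromosome 7, 126759601 to 126765819, plus strand) varied more than Mos or Map2k1 among the control libraries. Its counts were 1915, 1075 and 1497 in control and 1552, 1745 and 1361 in metformin libraries. Control replicates 1 and 2 were the highest and the lowest of all 6, so the metformin libraries lay within the control range, also after scaling at 159 ± 40.1 and 153 ± 16.7 CPM (SD, n = 3). The log2 fold change was -0.06 (SE 0.181, 95% interval -0.46 to 0.34, adjusted p = 1.00, edgeR). It was 0.14 without control replicate 1, the library with the highest blood marker sum, whose part in the Mapk3 value was not tested.

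The RSK genes encode the kinases that ERK activates directly, and their mRNAs were scarce. Rps6ka3 (RSK2; ENSMUSG00000031309, chromosome X, 159210307 to 159368244, plus strand) had 177, 166 and 143 counts in control and 176, 169 and 156 in metformin libraries. The metformin libraries, at 16.0 to 16.7 CPM, lay inside the control range of 14.8 to 18.8 CPM, and the log2 fold change was -0.08 (SE 0.181, 95% interval -0.48 to 0.32, adjusted p = 1.00, edgeR). It was -0.18 without control replicate 3 and -0.02 without control replicate 2.

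Rps6ka1 (RSK1; ENSMUSG00000003644, chromosome 4, 133847290 to 133887797, minus strand) had 39, 38 and 48 counts in control and 34, 36 and 35 in metformin libraries. It was the only one of the 6 tested cascade genes whose groups did not overlap in CPM, at 4.10, 4.30 and 4.96 CPM without the drug against 3.23, 3.54 and 3.58 CPM with it. Over all genes tested, 5.63% had groups without overlap. The log2 fold change was -0.37 (SE 0.245, 95% interval -0.90 to 0.17, unadjusted p = 0.161, adjusted p = 1.00, edgeR), and leaving out any 1 library gave values between -0.43 and -0.28. The coefficient of variation over all 6 libraries was 15.9%, beside 16.2% from counting error alone at this depth. An exon of the antisense gene Gm12977 overlaps Rps6ka1 over 247 bases on the opposite strand, and the kit keeps no strand. Gm12977 itself had 0 counts in every library.

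Rps6ka2 (RSK3; ENSMUSG00000023809, chromosome 17, 7170115 to 7303315, plus strand) was at or near the floor. Its counts were 0, 0 and 3 in control and 4, 0 and 4 in metformin libraries, and it was not tested because it did not pass the filter on low counts. The summed 8 against 3 counts gave a ratio of 2.45 with an exact interval of 0.589 to 14.4, which covers counting error only. Its longest coding transcript also matches transcripts of Sod2, a mitochondrial superoxide dismutase gene, at 98.3% identity over 3110 bases. It matches the annotated gene AC166110.4 at 98.0% over 3106 bases as well, so the few reads could be split among these genes.

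**Figure D1:**
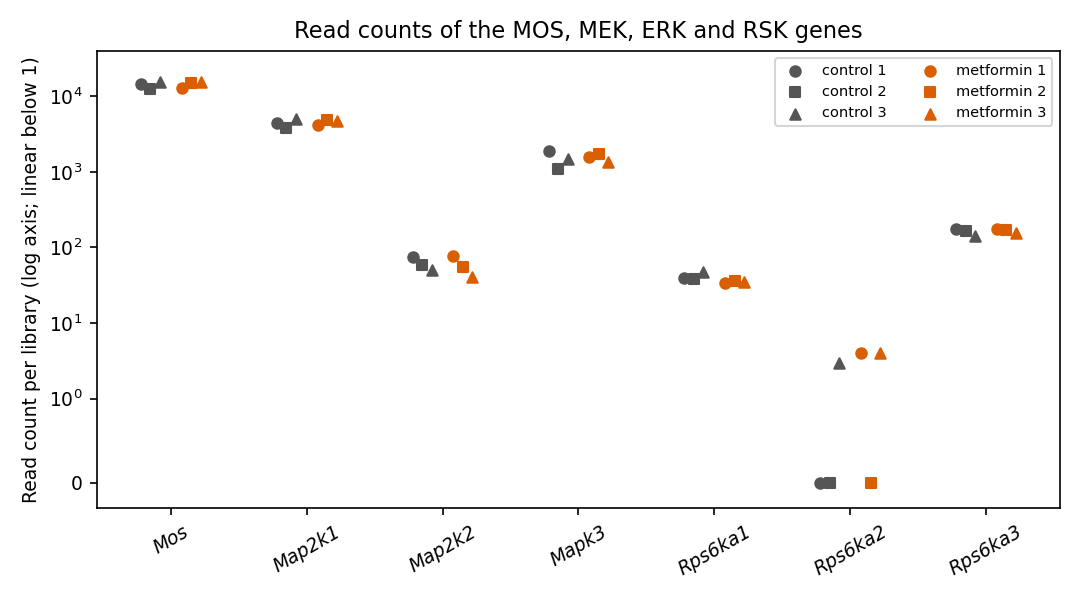
Read counts (y axis, logarithmic above 1 and linear below) of the 7 cascade genes (x axis) in each control library (grey) and metformin library (orange), with the marker shape giving the replicate number. Mos lies between 12325 and 15643 counts and Rps6ka2 between 0 and 4, and the groups overlap for every gene drawn except Rps6ka1.

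**Figure D2:**
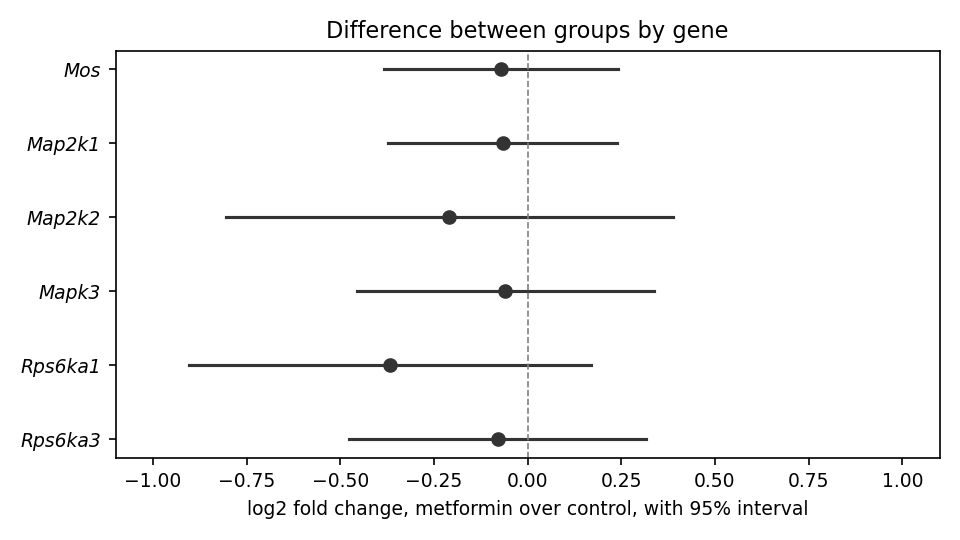
Points are edgeR log2 fold changes of metformin over control (x axis) for the tested genes (y axis), and bars are 95% intervals from the quasi-likelihood fit on 3 libraries per group. Every interval includes 0, and those of Map2k2 and Rps6ka1 are the widest.

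In the fit across all genes, 5 of 12793 genes were called at an adjusted p under 0.05 (0.0391%), and 0 of the 6 tested cascade genes were. At an unadjusted p under 0.05 the count was 192 of 12793 genes (1.50%) and again 0 of 6, and DESeq2 called 0. All 6 had log2 fold changes below 0, the median being -0.08, as had 6078 of the 12793 genes, whose median was 0.01; but some of these signs turned when 1 library was left out. Mos was at 0.03 without metformin replicate 1, Map2k1 at 0.01 without control replicate 3 and 0.02 without metformin replicate 1, and Mapk3 at 0.14 without control replicate 1 and 0.00 without metformin replicate 3.

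Levels of different genes can be compared only per length, and the length behind the deposited FPKM (counts scaled by gene length and library size) had to be found first. The count divided by the FPKM gave 1449 bases for Mos, 4065 for Map2k1, 8125 for Map2k2, 3878 for Mapk3, 6644 for Rps6ka1 and 11078 for Rps6ka3. These are the sums of all distinct annotated exons in GENCODE M21, in which bases shared by exons of different isoforms count more than once. Merged exons cover only 3391 bases of Map2k1, 5663 of Map2k2 and 2257 of Mapk3. The same sum matched the deposited FPKM to within 1% for 97.6% of the 4308 genes that reached 200 counts in each of the 6 libraries, and merged exons did so for 12.7%. Mos has 1 annotated exon and the same length either way, so deposited FPKM sets it higher relative to genes with several isoforms than merged exons do.

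The order of the cascade was therefore taken under 3 lengths. By deposited FPKM it ran Mos (mean of 6 libraries 1007), Map2k1 (113), Mapk3 (40.2), Rps6ka3 (1.53), Map2k2 (0.759), Rps6ka1 (0.593) and Rps6ka2 (0.0170). Map2k2 and Rps6ka1 overlapped across libraries, and every other pair of neighbours was apart. Merged exons gave the same order. Per kilobase of the longest coding transcript, Mos stood at 1037 ± 66.4 CPM per kb in control and 987 ± 129.5 in metformin libraries, Map2k1 at 193 ± 19.0 and 185 ± 20.2, and Mapk3 at 88.4 ± 22.3 and 84.9 ± 9.27 (SD, n = 3). On that scale Map2k2 (2.55 over all 6 libraries) and Rps6ka3 (2.33) changed places and overlapped. The step from Mos to Map2k1 was 8.93-fold by deposited FPKM and 5.35-fold per kilobase of transcript.

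**Figure D3:**
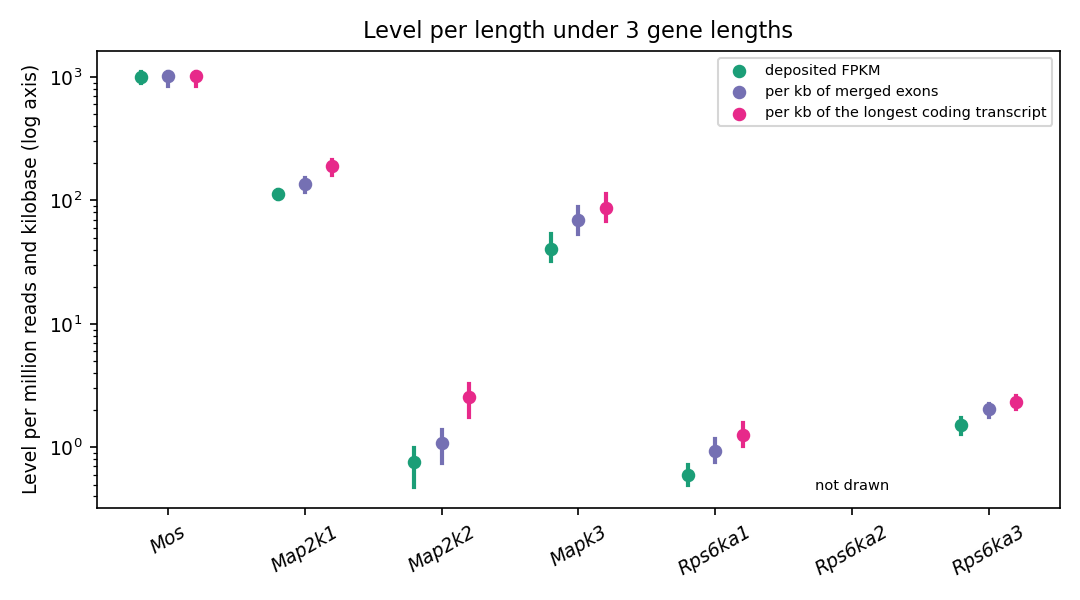
Level per length, as FPKM or CPM per kb (y axis, logarithmic), of each gene (x axis) with the length behind the deposited FPKM, merged exons or the longest coding transcript; points are means and bars the range over 6 libraries. The means of Mos, Map2k1 and Mapk3 lie at 40.2 or above and those of Map2k2 and the RSK genes at 2.55 or below under every length; Rps6ka2, with 0 counts in 3 libraries, is not drawn.

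Because a ratio within 1 library does not depend on scaling between libraries, such ratios were compared between groups, with p-values adjusted over the 4 computed. On deposited FPKM, Map2k1 made up 99.3% ± 0.179 of MEK mRNA in control and 99.4% ± 0.252 in metformin libraries (SD, n = 3). Rps6ka3 made up 69.6% ± 5.51 and 73.2% ± 1.56 of the RSK mRNA of the 3 genes and Rps6ka1 29.96% ± 4.72 and 25.6% ± 1.48 (SD, n = 3).

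The log2 ratio of Rps6ka1 to Rps6ka3 was -1.45, -1.39 and -0.84 in control and -1.63, -1.49 and -1.42 in metformin libraries, which overlapped (two-sided exact permutation p = 0.200, adjusted p = 0.800). Map2k1 exceeded Map2k2 by 7.18 ± 0.405 on the log2 scale in control and 7.34 ± 0.556 in metformin libraries (exact p = 0.800), and Mos exceeded the summed RSK genes by 8.85 ± 0.164 and 8.92 ± 0.198 (exact p = 0.700; SD, n = 3; adjusted p = 0.800 for both). With 3 against 3 libraries the smallest possible two-sided p is 0.1, so these tests could not call a difference. On the log2 scale the differences of the means, metformin minus control, were -0.29, 0.16 and 0.07 in the same order. The difference for Rps6ka1 to Rps6ka3 was -0.10 without control replicate 3 and -0.40 without control replicate 1. On deposited FPKM Map2k1 exceeded Map2k2 145-fold in control and 162-fold in metformin libraries, and per base of the longest coding transcript 71.6-fold and 79.99-fold. Mos exceeded the summed RSK genes 461-fold and 484-fold on deposited FPKM, and 269.8-fold and 287-fold per base of the longest coding transcript. The sum covers Rps6ka1, Rps6ka2 and Rps6ka3 and leaves out the paralog Rps6ka6, so the folds over all RSK mRNA would be smaller.

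The spread of each cascade gene was set beside that of counting alone. Over all 6 libraries the coefficient of variation of the CPM was 9.49% for Mos, 9.62% for Map2k1 and 17.8% for Mapk3, where counting error alone gives 0.837%, 1.49% and 2.56%. For Rps6ka3 the values were 9.13% and 7.80%, and for Map2k2 22.9% and 13.0%. The counting value takes each read as an independent molecule, and what the rest of the spread comes from was not tested.

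The 3 genes whose log2 CPM followed that of Mos most closely over the 6 libraries, among 6667 others averaging at least 10 CPM, were Rsl24d1, a ribosome biogenesis factor gene, with a Pearson r of 0.996, the processed pseudogene Gm9174 with 0.995 and the amino acid transporter gene Slc6a15 with 0.987. All had their lowest value in metformin replicate 1 and their highest in metformin replicate 3, as Mos had. Map2k1 followed Mos with r = 0.94, rank 75 of 6667, while 192 genes reached 0.9 or more. Mapk3 had r = 0.27 and Rps6ka3 r = -0.31. The 6 points share library effects, and these values are a description only.

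Other genes of the pathway were followed in 7 lists by role. Of 117 genes listed, 116 were matched in the table and 81 were tested. At an adjusted p under 0.05, 0 of 81 were called by edgeR and 0 by DESeq2. At an unadjusted p under 0.05 there were 3 of 81, 1 higher and 2 lower, beside 1.50% of all genes tested, and 4 had groups without overlap (4.94% of 81, beside 5.63% of all genes). Of the 81, 37 were fitted higher and 44 lower, and the median of their log2 fold changes was -0.04.

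Inputs by RAS and RAF, the route by which growth factor receptors reach MEK, had 12 of 17 tested genes fitted higher and a median of 0.05, and 0 passed. The small GTPase genes Rap1b and Rap1a had the highest deposited FPKM of the list, at means of 87.7 and 53.0. Rap1b stood at 269 ± 4.16 and 274 ± 29.2 CPM (SD, n = 3). The smallest unadjusted p belonged to Hras, with 27, 20 and 40 counts in control and 60, 53 and 25 in metformin libraries (log2 fold change 0.54, SE 0.349, adjusted p = 1.00, edgeR) and to Rasal2, a RAS GTPase-activating protein gene, at 20.4 ± 2.33 and 23.9 ± 3.04 CPM (SD, n = 3). Rras2, an R-RAS GTPase gene named after its values were seen, was the 1 tested gene of the list without overlap, at 33.1 ± 2.12 and 37.8 ± 2.13 CPM (SD, n = 3; log2 fold change 0.19, SE 0.153, adjusted p = 1.00, edgeR).

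Of the other ERK, MSK, MNK and RSK-family genes, 3 of 7 tested were fitted higher, and 0 passed. Mknk1, which encodes an ERK-activated kinase of the translation factor eIF4E, had 959, 935 and 1137 counts in control and 599, 541 and 1083 in metformin libraries. Metformin replicates 1 and 2 were low and replicate 3 lay within the control range (log2 fold change -0.55, SE 0.266, unadjusted p = 0.0679, adjusted p = 1.00, edgeR). Mapk6, which encodes the atypical kinase ERK3, stood at 262 ± 16.5 and 279 ± 33.9 CPM (SD, n = 3). Rps6ka6, the remaining RSK paralog and a gene named after its values were seen, had 65 to 104 counts in control and 80 to 91 in metformin libraries. Its mean deposited FPKM was 1.01, above the 0.593 of Rps6ka1 and below the 1.53 of Rps6ka3. The RSK shares and sums above do not include it.

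In the JNK and p38 branch, the stress-activated relatives of the ERK cascade, 4 of 9 tested genes were fitted higher and 0 passed. Mapkapk2, a p38-activated kinase gene, had 13, 9 and 4 counts in control and 18, 26 and 19 in metformin libraries, without overlap (log2 fold change 1.14, SE 0.437, unadjusted p = 0.0232, adjusted p = 1.00, edgeR). Mapk10, which encodes JNK3, stood at 12.2 ± 1.67 and 14.2 ± 2.36 CPM. The abundant members were Mapk8, which encodes JNK1, at 278 ± 24.0 and 263 ± 12.0 CPM, and its activator gene Map2k4 at 154 ± 14.7 and 141 ± 11.8 CPM (SD, n = 3).

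The list of ERK phosphatases, which end the signal, also held Dusp10 and Dusp16, whose products act mainly on JNK and p38. Of its 10 tested genes, 2 were fitted higher, Dusp10 among them (0.19), and 8 lower, with a median of -0.05, and 0 passed. Ptpn5, which encodes a tyrosine phosphatase of ERK, had 10, 11 and 15 counts in control and 6, 4 and 7 in metformin libraries, without overlap (log2 fold change -1.18, SE 0.448, unadjusted p = 0.0224, adjusted p = 1.00, edgeR). The subunit gene Ppp2r1b of protein phosphatase PP2A ranged from 33 to 80 counts in control and from 34 to 129 in metformin libraries. The abundant genes were Dusp7, an ERK phosphatase gene, at 129 ± 9.12 and 120.4 ± 16.7 CPM and the PP2A scaffold subunit gene Ppp2r1a at 131 ± 10.5 and 127 ± 5.74 CPM (SD, n = 3).

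Scaffolds and inhibitors had 6 of 14 tested genes fitted higher, a median of -0.06, and 0 passed. Hsp90ab1, a chaperone of RAF and MOS kinases among others, stood at 718 ± 54.1 and 680 ± 101 CPM, and its kinase-specific partner gene Cdc37 at 6.96 ± 1.39 and 8.13 ± 2.05 CPM. The 14-3-3 gene Ywhab stood at 408 ± 21.5 and 418 ± 27.1 CPM, and Lamtor2, a subunit gene of the lysosomal scaffold that binds MEK1, at 92.1 ± 12.0 and 84.4 ± 9.29 CPM (SD, n = 3).

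Arrest effectors and genes of Mos control had 7 of 18 tested genes fitted higher, a median of -0.07, and 0 passed. The list includes Myt1 (log2 fold change 0.09), a zinc-finger transcription factor gene in mouse, beside the similarly named kinase gene Pkmyt1. The cyclin B genes, whose products keep CDK1 active in the arrested egg, were the most abundant: Ccnb1 stood at 2373 ± 338 and 2222 ± 307 CPM and Ccnb2 at 322 ± 38.7 and 324 ± 26.0 CPM (SD, n = 3). Plk1, a kinase that marks the APC/C inhibitor EMI2 for destruction, had 1006, 809 and 1004 counts in control and 1376, 1045 and 1331 in metformin libraries (log2 fold change 0.30, SE 0.152, unadjusted p = 0.0750, adjusted p = 1.00, edgeR). The calcineurin subunit gene Ppp3cb stood at 8.10 ± 0.765 and 6.52 ± 1.69 CPM (SD, n = 3).

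The list of ERK-responsive genes held transcriptional targets of the cascade in somatic cells and also the transcription factor genes Elk1, Elk3, Elk4 and Srf. It had 3 of 6 tested genes fitted higher and a median of -0.14, and 0 passed, values that do not describe target genes alone. Of the 16 listed, 10 did not reach the test. Elk3, an ETS factor gene, had 36, 27 and 37 counts in control and 25, 19 and 15 in metformin libraries, without overlap (log2 fold change -0.88, SE 0.295, unadjusted p = 0.0120, adjusted p = 1.00, edgeR). The immediate-early gene Egr1 had 16 to 27 counts in control and 29 to 36 in metformin libraries, which overlapped once scaled to CPM. The ETS factor genes Elk4 and Etv5 stood at 61.5 ± 5.03 and 62.1 ± 5.44 CPM and at 3.66 ± 0.540 and 2.75 ± 1.17 CPM (SD, n = 3).

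**Figure D4:**
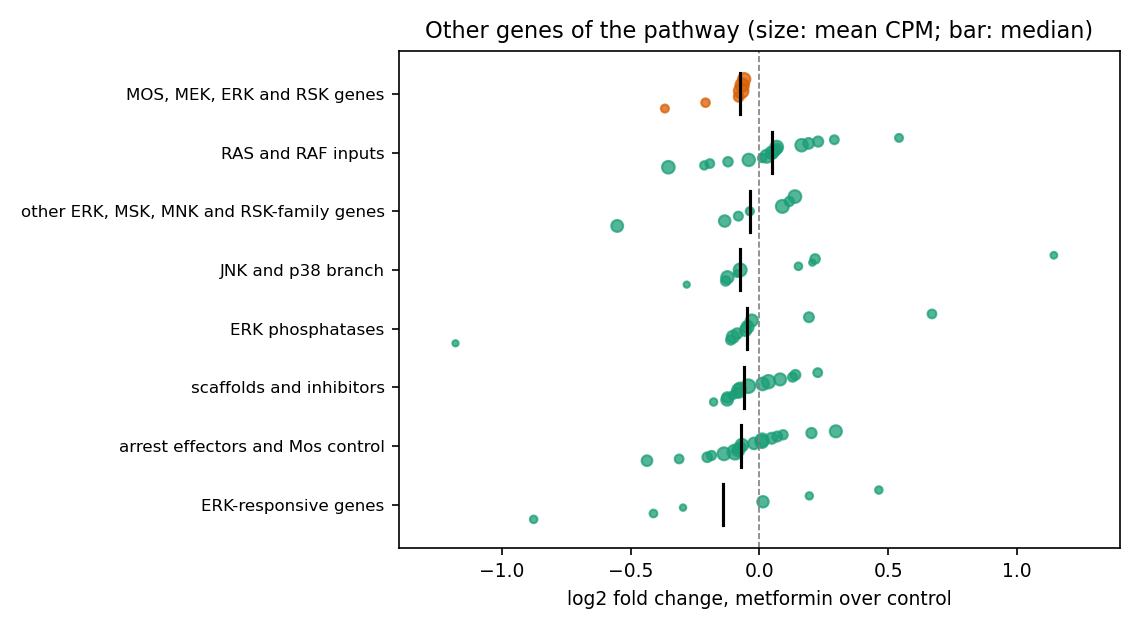
Each point is the edgeR log2 fold change of metformin over control (x axis) of 1 tested gene in the list on the y axis, with point size rising with mean CPM and a black bar at the median of the list. Medians lie between -0.14 and 0.05, and the values farthest from 0, those of Mapkapk2 and Ptpn5, belong to genes with few counts.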

How the data were processed

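The authors deposited 1 table in which each of 55487 mouse gene identifiers has a read count, unscaled, and an FPKM (counts scaled by gene length and library size) in each of 6 libraries, per the file headers. Reads came from SMART-Seq HT libraries, per the labels' protocols. CASAVA 1.8, TopHat2 2.0.6 and mm10 are named in the submitters' processing notes, and the counting program is not given in the sources used here. Identifiers were matched to GENCODE M21 symbols, 55141 of 55487 being found, and columns to samples by the initial and number of each title. Counts were tested as deposited with edgeR 4.0.16 (R 4.3.3) by its quasi-likelihood test in a robust fit, with TMM scaling and filterByExpr (minimum count 10); the model held only the group, and p-values were adjusted by Benjamini-Hochberg over the 12793 genes tested, with a threshold of 0.05. Each SE was taken as the absolute log2 fold change over the root of its F statistic. CPM values use TMM-scaled library sizes. Deposited FPKM values entered within-library ratios, compared by two-sided exact permutation tests and adjusted over the 4 ratios; the planned ratio of Rps6ka2 to Rps6ka3 has no value in libraries with 0 counts, and 1 computed ratio is not reported here. Near-identical transcripts were sought with blastn 2.17.0. The fit was tested on simulated data. Since PCR copies are counted as separate reads, count intervals and floors cover counting error only.

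The members, lists and tests were chosen with earlier results of these data known. Named genes are the cascade genes and the 3 genes most like Mos. From each other list they include the 2 tested genes with the smallest p and the 2 with the highest FPKM. Others were named after their values were seen, whether or not this is said beside them. The alternatives were other scalings and filters, a non-robust fit, DESeq2 1.42.0, limma-voom (limma 3.58.1), the replicate number as a block, the omission of mitochondrial genes, the omission of each library and a threshold of 0.10.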

Additional observations from a re-analysis of the deposited data

How the results depend on the processing

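The count of cascade genes past the threshold was 0, and that of other pathway genes was 0, under every scaling, filter, tool and omission run. Of all genes, 5 were called, 8 by DESeq2 and between 5 and 12 when 1 library was left out (5 without control replicate 2, 12 without metformin replicate 3). Of 94 alternative log2 fold changes of the 6 tested cascade genes, 89 kept their sign, all with an adjusted p of at least 0.997, and the 5 that turned came from leaving out 1 library. Over those omissions the log2 fold change ranged from -0.16 to 0.026 for Mos (without metformin replicate 1), from -0.14 to 0.020 for Map2k1 (also without metformin replicate 1) and from -0.22 to 0.14 for Mapk3. The difference in the log2 ratio of Map2k1 to Map2k2 ranged from -0.10 to 0.46 and that of Mos to the summed RSK genes from -0.018 to 0.18; the cause was not tested. The median over all genes shifted by at most 0.011 (log2) in size under any scaling. The lengths were added after the data were seen: 5 of 7 genes kept their rank per kilobase of the longest coding transcript. With the replicate block, 7 genes and 0 cascade genes were called. The deviations of same-numbered libraries had r of 0.144, 0.0441 and 0.200, not all over 0.1, so the numbers were not taken as pairs, although each library correlated best with its own number in the other group. No fold change is given for Rps6ka2, which did not pass the filter on low counts of the main fit. Map2k2 and Rps6ka1 gave none at the filter of 10 CPM, for lack of reads.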

Other observations

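Ppp2r5e, a regulatory subunit gene of the phosphatase PP2A that was named after its values were seen, had 83 counts in metformin replicate 3 and between 282 and 415 in the other 5 libraries.

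Several ERK targets and feedback genes known from somatic cells were at or near 0, and ERK activity itself was not measured. Myc, Egr2 and Spry2 had 0 counts in all 6 libraries, and Fos had between 1 and 8. Spry4 and Dusp1 were detected in every library, at 983 to 1290 and 749 to 1206 counts. Fbxo43, which encodes EMI2, had between 1777 and 2166 counts and a coefficient of variation of 5.80% over the 6 libraries, below the 9.49% of Mos. Apart from Mos, the genes of this paragraph were named after their values were seen.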
